A study of Mus musculus with 3 samples.

Results

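The zinc finger genes Zfp700 to Zfp999 are mouse genes that carry a numbered zinc finger symbol. They were chosen by name alone, as genes with at least 1 protein_coding transcript whose symbol runs from Zfp700 to Zfp999, with an optional letter after the number. The rule gave 137 of the 21901 genes with a protein_coding transcript, and a further 254 Zfp genes have numbers below 700. RNA was measured in bone-marrow-derived macrophages, primary cells grown out of the marrow of C57BL/6J mice, an inbred laboratory strain; sex and age were not recorded. There was a single group of 3 libraries, all of chromatin-associated RNA after ribosomal RNA depletion, from cells given Lipid A at 100 ng/ml for 10 min. Lipid A is the part of bacterial lipopolysaccharide that stimulates Toll-like receptor 4. Starting RNA was 1 µg for replicate 1, 250 ng for replicate 2 and 500 ng for replicate 3, so the amount and the replicate cannot be told apart. The labels call the libraries biological replicates and give them a common donor entry, so the spread between them may be partly technical. No unstimulated library was analysed here, so all values are levels and none shows a response to Lipid A.

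Most proteins of this kind hold rows of C2H2 zinc fingers, small folds in which a pair of cysteines and a pair of histidines grip a zinc ion and neighbouring residues read bases of DNA. Many also hold a KRAB domain, which recruits the corepressor Trim28 (also called KAP1), and with it the histone methyltransferase Setdb1 and heterochromatin protein. Mouse KRAB zinc finger proteins are best known for silencing retrotransposons, and their genes lie in clusters that grew by repeated duplication, so that neighbours are often nearly identical.

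Fingers and close copies are shown here as coding sequences. The first finger followed at once by the canonical linker is printed for 4 members, as the coding strand of GENCODE M21 transcripts, with the linker codons in capitals. Zfp950 was chosen as the member with the highest level, Zfp966 for its identical copies, and Zfp809 and Zfp932 for their known part in silencing retroviral elements. Coordinates are in mm10.
Zfp950, chr19:61120254-61120331, minus strand: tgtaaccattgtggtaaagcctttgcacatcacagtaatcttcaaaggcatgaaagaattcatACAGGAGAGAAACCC
Zfp966, chr2:175921202-175921279, minus strand: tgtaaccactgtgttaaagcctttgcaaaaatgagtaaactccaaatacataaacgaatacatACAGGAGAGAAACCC
Zfp809, chr9:22239019-22239096, plus strand: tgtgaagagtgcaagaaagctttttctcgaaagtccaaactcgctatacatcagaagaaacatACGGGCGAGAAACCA
Zfp932, chr5:110008837-110008914, plus strand: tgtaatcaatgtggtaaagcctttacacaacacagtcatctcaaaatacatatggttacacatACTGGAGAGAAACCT
The search set the places of the cysteine and histidine codons and of the linker, so their shared layout is not a result. The bases between the cysteine and histidine codons differ. The coding sequence of Zfp966 has 1455 bases, and those of Zfp967, Zfp968 and Zfp969 differ from it at 0 positions. Zfp965 and Zfp973 likewise differ at 0 of 954 positions. Zfp991 and Zfp992 differ at 8 of 1719 positions, and the 90-base coding window with the most differences holds 2 of them, in capitals.
Zfp991, chr4:147179230-147179319, plus strand: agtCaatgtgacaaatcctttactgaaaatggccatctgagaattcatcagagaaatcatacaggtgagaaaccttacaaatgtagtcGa
Zfp992, chr4:146466886-146466975, plus strand: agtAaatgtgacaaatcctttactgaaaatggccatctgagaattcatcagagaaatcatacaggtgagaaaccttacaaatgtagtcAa
Reads from such stretches match several genes equally well, and the values of such genes rest on how the authors' programs divided them.

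Promoters were taken from RefSeq (GRCm38.p6) as 250 bases before to 50 bases after a RefSeq start. For each member the RefSeq start nearest its GENCODE start was used, without a distance limit, and 117 of the 137 members matched. The 8-letter word CCAATCAG, an extended form of the CCAAT box that the factor NF-Y binds, was searched on both strands. It was in 31 of 117 member promoters (26.5%), against 4.83% of the 20148 promoters of genes with a protein_coding transcript. The shorter word CCAAT, which CCAATCAG contains, was in 64.1% of member promoters and in 37.8% of those 20148. By domain, 30 of the 92 promoters of members with a KRAB pattern held the longer word, against 1 of 25 promoters of members without. The 31 genes lay on 10 chromosomes, but many are copies of each other and are not independent. The word was noticed in the sequences before it was counted, so the counts are descriptions. The promoter of Zfp950 is shown as that of the most abundant member, and those of Zfp966 and Zfp973 stand for the duplicated genes of chromosome 2. Capitals mark the word.
Zfp950, chr19:61140791-61141090, minus strand: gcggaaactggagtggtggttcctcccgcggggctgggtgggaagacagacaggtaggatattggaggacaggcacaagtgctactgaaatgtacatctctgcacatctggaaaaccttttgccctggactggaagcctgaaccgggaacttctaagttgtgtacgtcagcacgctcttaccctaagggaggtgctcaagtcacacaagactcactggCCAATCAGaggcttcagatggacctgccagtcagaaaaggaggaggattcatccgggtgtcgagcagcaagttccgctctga
Zfp966, chr2:175931051-175931350, minus strand: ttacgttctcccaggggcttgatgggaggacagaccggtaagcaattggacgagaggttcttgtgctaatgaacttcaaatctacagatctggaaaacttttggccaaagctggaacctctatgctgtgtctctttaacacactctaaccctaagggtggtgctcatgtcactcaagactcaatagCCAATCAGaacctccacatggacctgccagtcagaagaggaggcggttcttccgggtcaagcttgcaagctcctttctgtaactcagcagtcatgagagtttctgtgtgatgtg
Zfp973, chr2:176670272-176670571, plus strand: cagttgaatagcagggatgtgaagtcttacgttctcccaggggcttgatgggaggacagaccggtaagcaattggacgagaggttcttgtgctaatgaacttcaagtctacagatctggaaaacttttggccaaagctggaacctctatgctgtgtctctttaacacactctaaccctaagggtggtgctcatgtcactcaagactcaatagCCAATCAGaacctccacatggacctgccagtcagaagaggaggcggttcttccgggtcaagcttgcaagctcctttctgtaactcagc
The Zfp966 promoter is identical to that of Zfp967 over all 300 bases. It shares an unbroken run of 274 bases with the promoter of Zfp968 and of 194 bases with that of Zfp973. With Zfp950 the longest shared run was 19 bases.

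Member promoters held a median of 9 CG dinucleotides, against 14 for all promoters of genes with a protein_coding transcript. Promoters of members with a KRAB pattern held a median of 8 CG, against 22 for members without the pattern. Members detected in all libraries, at a TPM of 1 or more, had a median of 10 CG, and the others of 7. Among the most abundant members, Zfp740, which has no KRAB pattern, held 54 CG, while Zfp871 and Zfp950, which have it, held 12 and 9. The promoters of Zfp740 and Zfp871 are shown for this contrast, and capitals mark each CG. The Zfp740 window begins after the GENCODE start of the gene, while that of Zfp871 includes it.
Zfp740, chr15:102203750-102204049, plus strand: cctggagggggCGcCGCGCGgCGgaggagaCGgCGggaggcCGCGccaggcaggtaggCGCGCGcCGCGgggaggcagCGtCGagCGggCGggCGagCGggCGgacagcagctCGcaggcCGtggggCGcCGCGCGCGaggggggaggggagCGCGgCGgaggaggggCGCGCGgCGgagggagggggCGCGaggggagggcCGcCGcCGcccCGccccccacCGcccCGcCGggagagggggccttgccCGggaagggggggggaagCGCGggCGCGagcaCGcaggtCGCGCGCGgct
Zfp871, chr17:32788238-32788537, minus strand: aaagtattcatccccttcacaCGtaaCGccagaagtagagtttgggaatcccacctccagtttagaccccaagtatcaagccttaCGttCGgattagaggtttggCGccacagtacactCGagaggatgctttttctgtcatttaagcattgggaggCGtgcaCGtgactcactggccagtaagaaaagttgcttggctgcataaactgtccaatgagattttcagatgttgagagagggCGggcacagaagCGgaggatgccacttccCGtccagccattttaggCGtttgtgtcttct
The TATA word TATAAA, searched on both strands, was in 3 of 117 member promoters (2.56%) and in 12.2% of the 20148. The word CCGGAAGT, bound by factors of the ETS family, was in 5.13% of member promoters and in 5.35% of the 20148.

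The proteins encoded by the members were described from their longest complete GENCODE coding sequence. They ranged in length from 76 residues in Zfp706 to 1628 in Zfp831, with a median of 541. The finger pattern occurred a median of 11 times and at most 30 times, in Zfp729b. It was not found in 7 members, which were Zfp703, Zfp750, Zfp781, Zfp839, Zfp935, Zfp957 and Zfp972. A KRAB pattern was found in 104 members and not in 33, and the linker in 120. Position went with domain: 93 members lay in 25 chains in which each start is within 200 kb of the next, and 44 stood alone. Of the chained members 86.0% had a KRAB pattern, against 54.5% of the single ones.

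Levels are TPM (the authors' abundance per length, as a share of all transcripts of the library) in the authors' gene table, and the mean ± SD is over 3 libraries. A second table, of transcripts, was made by the authors from the reads and a transcript index, per the deposited readme files, and its values are named as such. A gene is called detected where its TPM reached 1 in every library. By this rule 96 of 137 members were detected (70.1%), while the background over all genes with a protein_coding transcript was 46.1%. The share was 75.2% for Zfp genes numbered below 700 (191 of 254), so the members were not set apart from other genes of their naming series. Another 26 members had counts above 0 without being detected, and 15 had 0 counts in every library (10.9%, background 30.6%). A mean TPM of 10 or more was reached by 36 members (26.3%), close to the background of 25.6%. The members together held 0.285%, 0.357% and 0.310% of all estimated counts in replicates 1, 2 and 3, and the 10 most counted took 44.7%, 45.6% and 47.3% of those.

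**Figure D1:**
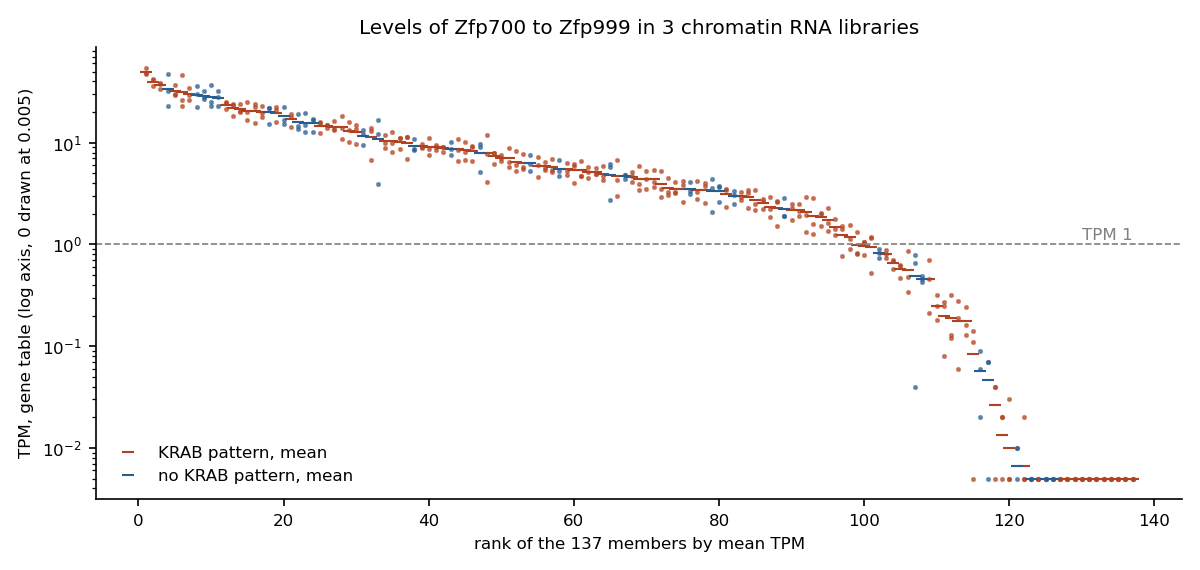
TPM of the 137 members in the gene table (y axis, log scale, 0 drawn at 0.005) by rank of the mean (x axis), with a dash for the mean and a dot for each of the 3 libraries, coloured by KRAB pattern. The curve falls gradually over the first 96 ranks and then drops steeply to the 15 members listed at 0; both colours occur along its whole length.

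The median TPM of the members was 4.40, 4.76 and 3.42 in replicates 1, 2 and 3, with a mean of 4.19 ± 0.693, against 0.753 ± 0.159 for all genes with a protein_coding transcript (SD, n = 3). The median log2(TPM + 1) of the members exceeded that of the other genes by 1.55, 1.67 and 1.51 in the 3 libraries, or 1.58 ± 0.08. This gap rested on genes at or near 0. When members and other genes with under 0.1 TPM in every library were left out, the difference was -0.21. Relative to Zfp genes numbered below 700 the difference was -0.13, 0.07 and 0.00, or -0.02 ± 0.10, which is within the spread between libraries.

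The member with the highest level was Zfp950, a KRAB zinc finger gene (ENSMUSG00000074733.14, chromosome 19, 61053840 to 61140840, minus strand). Its TPM was 47.4, 54.7 and 47.9, and its second-table mean of 50.7 differed from its gene-table mean by less than the SD of 4.09 between libraries. Grk5, a kinase gene, overlaps it on the opposite strand, and the sources used here do not state whether counting used strand. Such an overlap was present in 44 members, with a median TPM of 5.70 ± 1.05, against 3.70 ± 0.559 for the 93 without (SD, n = 3). A mean TPM of 10 or more was reached by 18 of the 44 and 18 of the 93, and 31 and 65 were detected. The part of opposite-strand reads in these levels was not tested. Zfp871 (ENSMUSG00000024298.15, chromosome 17, 32765496 to 32788287, minus strand) reached 38.5, 37.4 and 33.6 TPM, and shared only 0.243% of its 50-base words, the stretches of 50 bases in its annotated transcripts, with any other gene. Zfp740, a short protein with 2 fingers and no KRAB pattern (ENSMUSG00000046897.17, chromosome 15, 102203249 to 102215606, plus strand), reached 47.0, 31.9 and 23.0 TPM. Its TPM was highest in replicate 1, as was the share of TPM held by RNAs other than short RNAs and a few very abundant ones (38.1%, 31.6% and 28.5%), while its counts scaled by library differed less, with a coefficient of variation (CV) of 11.8%.

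Another 3 of the 6 most abundant members were a related set on chromosome 4. Zfp991 had a TPM of 35.8, 42.3 and 41.2, Zfp992 of 29.5, 37.2 and 29.9, and Zfp993 of 46.0, 26.2 and 22.7. The proteins of Zfp991 and Zfp993 were identical at 312 of the 313 residues of the shorter, and those of Zfp991 and Zfp992 at 567 of 573. Zfp991 shared 82.2% of its words with other genes, most with the pseudogene Znf41-ps, which itself had a TPM of 54.4 ± 8.10 (SD, n = 3). In Zfp993 the replicate 1 excess in TPM came from a single transcript, with a TPM of 30.2, 8.79 and 5.59. Its other transcript was even, with 15.7, 17.4 and 17.1. The excess was in TPM only: by counts scaled to library size, Zfp993 in replicate 1 was slightly below the mean of the other libraries.

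The next 9 members by level had mean TPMs between 20.6 and 30.0. They were Zfp971, Zfp787, Zfp865, Zfp710, Zfp704, Zfp932, Zfp738, Zfp709 and Zfp715. Zfp704 had a TPM of 28.2, 32.0 and 22.9. Zfp710 was the steadiest of the 15 most abundant after scaling, with a CV of 1.61%, although its TPM was 36.8, 25.2 and 22.9. Of the first 15, 5 had no KRAB pattern (Zfp740, Zfp787, Zfp865, Zfp710 and Zfp704).

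At the detection limit the ordering is not resolved. The detected members with the lowest means were Zfp763, Zfp937, Zfp964, Zfp808 and Zfp976, with mean TPMs of 1.48, 1.75, 1.85, 1.91 and 2.06. The undetected members with the highest means were Zfp791, Zfp772, Zfp941, Zfp712 and Zfp850, at 1.24, 1.19, 0.977, 0.963 and 0.950. Zfp791 had a TPM of 1.52, 1.43 and 0.770, so a single library kept it out. Zfp763 had 1.41, 1.77 and 1.25 and overlaps those values.

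Members with a described function covered the whole range. Zfp932, which in mouse embryonic stem cells represses endogenous retroviruses together with its paralog Gm15446, had a TPM of 25.2, 24.3 and 21.2. Its paralog had 23.7, 8.73 and 8.20, and they share reads: 37.0% of the words of Zfp932 occur in other genes. Zfp746 (PARIS), known as a substrate of the ubiquitin ligase parkin, had 22.0, 22.1 and 15.3. Zfp809, which binds the proline primer binding site of murine leukaemia virus and recruits Trim28, had 18.4, 13.9 and 10.8, and shared 0 words with other genes. All 3 were above a TPM of 10 in every library.

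Lower down, the corepressor gene Zfp703 had a TPM of 12.1, 13.3 and 9.50. Zfp706, which in mouse embryonic stem cells promotes exit from self-renewal, had 8.46, 10.8 and 8.62. Zfp830, a spliceosome-associated protein, had 10.1, 7.48 and 8.62. Zfp750, a regulator of epidermal differentiation, had 4.40, 4.76 and 4.86; it overlaps Tbcd on the opposite strand, so how many of its reads are its own was not tested. Zfp768 had 4.08, 3.34 and 3.11.

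Others of this kind were at or near 0. Zfp827, whose human counterpart acts at telomeres, had a TPM of 0.430, 0.490 and 0.460 and was detected only in the second table, with a mean of 2.06. Zfp708 had 0.0400, 0.780 and 0.660, with 94.9% of its words in other genes. Zfp711, whose human counterpart is linked to X-linked intellectual disability, Zfp804a, whose human counterpart is a schizophrenia risk gene, Zfp804b, and Zfp819, which represses endogenous retroviruses in mouse embryonic stem cells, had 0 counts in all 3 libraries. With 3 counts as the upper limit behind a 0, their level was at most 0.191, 0.187 and 0.209 CPM (counts as a share of the library total) in replicates 1, 2 and 3; this limit covers counting error only. The other members at 0 counts were Zfp735, Zfp879, Zfp935, Zfp936, Zfp967, Zfp969, Zfp978, Zfp985, Zfp986, Zfp987 and Zfp990. Of these 11, Zfp935, Zfp967 and Zfp969 shared 100% of their words with other genes, so that 0 does not separate them from their copies.

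By protein type, members with a KRAB pattern had a median TPM of 3.86 ± 0.575, against 5.68 ± 0.827 for members without (SD, n = 3). The difference in median log2(TPM + 1) was -0.52, -0.42 and -0.43, or -0.46 ± 0.06. It was -0.15 in the second table, and 0.03 among members that share under 10% of their words with other genes, a restriction chosen after seeing the data. Chained members lay below single ones by 0.27 ± 0.11 on the same scale, although they were detected slightly more often, 67 of 93 against 29 of 44. By number of fingers, the median TPM was 4.37 ± 0.411 for 0 to 5 fingers, 3.57 ± 0.754 for 6 to 10, 4.56 ± 0.384 for 11 to 15 and 6.81 ± 1.36 for 16 or more (SD, n = 3 each). Detection was 11 of 21, 33 of 43, 33 of 50 and 19 of 23 in that order, with no steady trend at the low end. The 31 members whose promoter held CCAATCAG had a median TPM of 6.64 ± 2.22, and 26 were detected, against 3.87 ± 0.636 and 58 of 86 for those without the word (SD, n = 3).

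Members that share most of their sequence with other genes had lower gene-table levels. The median member shared 3.22% of its 50-base words with any other gene, 50 shared under 1% and 22 shared 50% or more. Median TPM was 0.643 ± 0.0909 for the 22 with 50% or more, against 4.74 ± 0.439 for the 50 under 1% (SD, n = 3). Detection was 10 of 22 in the most shared class, 24 of 31 at 10 to 50%, 26 of 34 at 1 to 10% and 36 of 50 under 1%. In the second table the median of the most shared class was 3.00 ± 1.45 and that of the least shared class 5.08 ± 0.322 (SD, n = 3).

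The uncertainty that the authors' program gave for dividing reads moved with this share. It is reported as a standard deviation of the count, and is given here as percent of the count for the 111 members with a mean count of 10 or more. Of these, 9 were above 5% (8.11%), while the background was 3.63%. The median was 7.18% for members sharing 50% or more of their words and 0.942% at 10 to 50%. In the other classes it was 0. The highest were Zfp965 at 60.6%, Zfp781 at 34.2%, Zfp708 at 31.6%, Zfp960 at 19.9% and Zfp784 at 11.3%. All but Zfp784 shared more than 80% of their words. Zfp784 shared 0 words, which were compared on the transcript strand only, but overlaps Zfp865, Ccdc106 and 4632433K11Rik on the opposite strand; the part of these in its value was not tested.

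**Figure D2:**
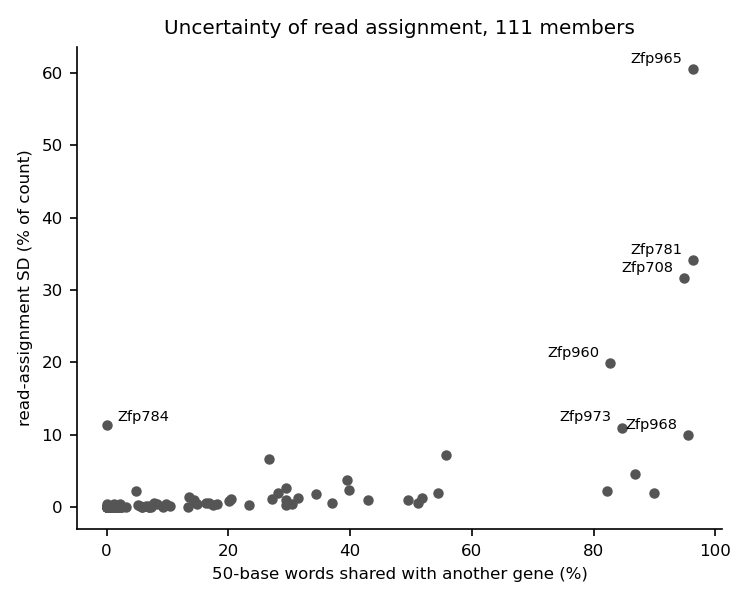
Read-assignment standard deviation as percent of the count (y axis) against the percent of 50-base words shared with another gene (x axis), for the 111 members with a mean count of 10 or more, 1 point each. Most points lie near 0 on the left, and the 4 highest, up to 60.6% for Zfp965, are at the right edge.

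Genes of chromosome 2 with identical coding sequences had unequal gene totals, and the gaps lay in some of their transcripts. Zfp966 had a TPM of 19.4, 23.0 and 17.8 and Zfp968 of 11.4, 11.3 and 6.97, while Zfp967 and Zfp969 were at 0 in all 3 libraries. Their proteins are identical at all 485 residues. In the second table the means were 17.4 for Zfp966 and 12.3 for Zfp968, and Zfp967 and Zfp969 were again at or near 0. Both quantifications gave reads to the same pair, whose transcripts hold some words that the other pair lacks: 89.96% of the words of Zfp966 and 95.5% of those of Zfp968 were shared. A second transcript of Zfp966 and one of Zfp968 had the same TPM as each other in every library, 0, 0.130 and 0.200. Zfp973 had 22.5, 20.8 and 16.1 and Zfp965, of the same coding sequence, had 3.49, 5.24 and 2.91. All of the Zfp965 value lay in a single transcript, and a transcript of Zfp973 had exactly those values too. The gap between the genes lay mostly in another transcript of Zfp973, with 18.6, 15.5 and 13.2.

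The largest disagreements between the tables were among genes of chromosome 4. There were 107 members detected in the second table (78.1%, background 55.2%), and 95 were detected in both. Only Zfp784 was detected in the gene table alone, with 3.57, 4.43 and 2.08 there and a mean of 0.594 in the second table. The 12 detected in the second table alone were Zfp772, Zfp775, Zfp791, Zfp811, Zfp827, Zfp936, Zfp941, Zfp960, Zfp979, Zfp985, Zfp989 and Zfp990. Among 112 members with a mean TPM of 1 or more in either table, 29 were higher by a factor of 2 or more in the second and 1 was lower. Together these 30 are 26.8%, close to the background of 29.3% for a difference in either direction.

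Zfp990 had 0 counts in the gene table and a TPM of 81.8, 79.9 and 82.9 in the second. Of that, 99.8% was in a processed_transcript of 262 bases with 76.1% of its words in other genes, Zfp987 and Zfp985 first. Zfp989 was at 0, 0.0300 and 0 TPM in the gene table and at 22.8, 27.7 and 30.8 TPM in the second, with 99.9% of the second-table mean in a processed_transcript of 309 bases. Zfp979 had 0.480, 0.870 and 0.340, against 24.0, 26.3 and 30.0, with 99.2% in a processed_transcript of 1756 bases. These values lay in transcripts annotated as non-coding. The highest mean TPM of any coding transcript in either table was 0.133 for Zfp990, 0.0155 for Zfp989 and 0.197 for Zfp979.

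The abundant Zfp991 had a TPM of 154, 191 and 174 in the second table, where 82.2% lay in a transcript of 234 bases. Its effective length there, the number of positions at which a fragment can start, was 81.6 bases, and its mean estimated count was 299, for a mean TPM of 142. Its longer transcript had 39.3 ± 4.31 TPM in the first transcript table (SD, n = 3) and a mean of 30.8 in the second. The excess of the second table thus lay in the short transcript. Zfp985, with 0 counts in the gene table, had 5.19, 10.7 and 9.76 in the second, and Zfp987 had 0, 11.7 and 0, so in Zfp987 only replicate 2 had any signal. Zfp936 had 0 counts, against 2.48, 2.84 and 3.10.

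**Figure D3:**
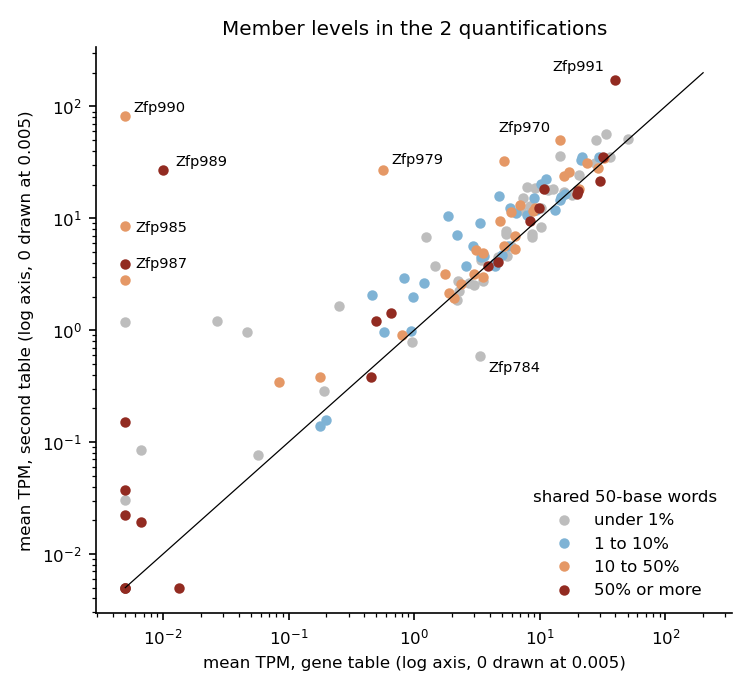
Mean TPM of each member over 3 libraries in the gene table (x axis, log scale) and in the second table (y axis, log scale), coloured by the share of 50-base words found in another gene; 0 is drawn at 0.005 and the line marks equal values. Most members lie near the line, and Zfp990, at 0 in the gene table and 81.5 in the second, is farthest from it.

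Chromosome 4 held 16 members, of which 5 were detected in the gene table, fewer than on the other chromosomes with 10 or more members. There it was 18 of 25 on chromosome 7, 19 of 23 on chromosome 17, 11 of 14 on chromosome 13, 10 of 14 on chromosome 2 and 12 of 14 on chromosome 8. Of the other genes on chromosome 4 with a protein_coding transcript, 46.1% were detected. The median of mean TPM over the 16 members was 0.0483 in the gene table and 9.03 in the second, and no other chromosome with 10 or more members differed as much between the tables.

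The 2 largest chains stood apart in how far the tables differed. That of chromosome 17 (21567008 to 22456689) held 12 members, all with a KRAB pattern, and 10 were detected, from 0.200 for Zfp820 to 14.4 for Zfp942. Their median of mean TPM was 4.78 in the gene table and 5.11 in the second. In 2 of the 12 the second table was higher by a factor of 2 or more: the mean of Zfp943 was 5.79 in the gene table and 12.3 in the second, and Zfp995 had 4.54, 5.80 and 5.18, against a mean of 32.5 in the second table. Zfp947, the gene with which Zfp995 shares the most words, had 0.740, 0.880 and 0.800. That of chromosome 4 (146971976 to 147848366) held 9 members, again all with a KRAB pattern, and 3 were detected, from 0 for Zfp978 and Zfp985 to 39.8 for Zfp991. There the medians were 0.0833 in the gene table and 9.52 in the second. The median share of words in other genes was 54.5% in the chromosome 4 chain and 5.80% in the chromosome 17 chain. The chain of chromosome 13 (67339306 to 67687071) was detected in full, 7 of 7, from 3.35 for Zfp874a to 21.8 for Zfp738.

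**Figure D4:**
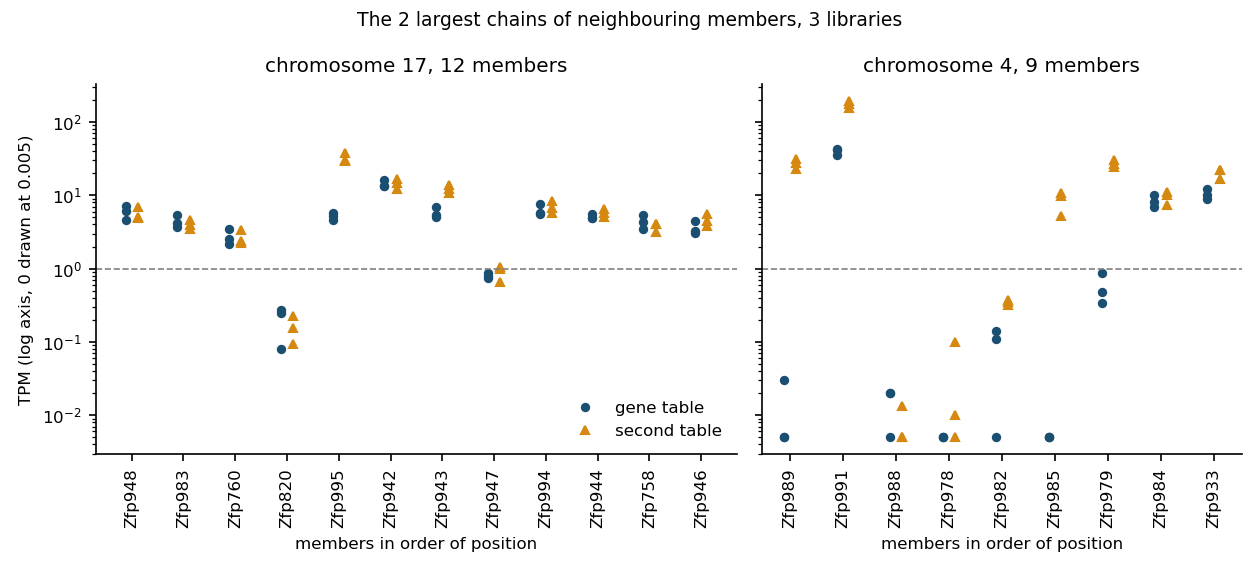
TPM (y axis, log scale, 0 drawn at 0.005) of the 12 members of the chromosome 17 chain and the 9 of the chromosome 4 chain in order of position (x axis), with circles for the gene table and triangles for the second table, 1 symbol per library. On chromosome 17 the means of the tables differ by less than a factor of 2 except for Zfp943 and Zfp995; on chromosome 4, Zfp989, Zfp985 and Zfp979 lie below 1 TPM in the gene table and above 5 in the second.

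Chromatin RNA holds many unfinished or unspliced transcripts. Classes such as retained_intron are sets of particular annotated transcripts, so the share of TPM in them is not a measure of unspliced RNA. Of 96 detected members, 58 had at least 1 transcript annotated outside protein_coding. Such a transcript was present in 8423 of the 10106 detected genes with a protein_coding transcript. It was present in 137 of the 191 detected Zfp genes numbered below 700. Members thus had such transcripts less often than either list, and the shares given next cover only genes that have them. For the 58 members the median share of TPM in such transcripts was 35.5%, 37.0% and 39.0% in replicates 1, 2 and 3, or 37.2% ± 1.77. Under the same rule this share was 52.0% ± 1.72 for all genes with a protein_coding transcript (SD, n = 3). It was 33.9% ± 1.28 for Zfp genes numbered below 700. The retained_intron class took a mean of 21.2% ± 1.33 of the TPM of these members, against 35.2% ± 1.44 for all genes (SD, n = 3), while processed_transcript took 11.2% ± 0.392, against 9.99% ± 0.0490. In the second table the median share of the members was 49.2%.

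The highest shares were in Zfp865 at 90.4%, Zfp874a at 87.2%, Zfp945 at 86.5%, Zfp976 at 74.2% and Zfp938 at 74.0%. In Zfp865, a processed_transcript had a TPM of 17.9, 23.8 and 19.5, and the main coding transcript had 3.36, 2.66 and 2.12. The level of this gene, among the 15 highest, thus lay mostly outside its coding transcripts. Zfp938 had 100%, 21.9% and 100%, so its mean hides a split between libraries. Zfp763, Zfp764, Zfp870, Zfp943 and Zfp955b had 0% in all 3 libraries, although Zfp763 had 69.8% and Zfp943 50.4% in the second table.

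Spread between libraries was measured on counts scaled to library size with TMM factors. The 111 members with a mean count of 10 or more had a median CV of 14.2%, against 13.3% for all genes under the same filter. Among the 98 members with a mean count of 50 or more, the steadiest were Zfp780b, Zfp956, Zfp710, Zfp959 and Zfp799, with CVs of 0.541%, 0.830%, 1.61%, 2.15% and 2.25%. The most variable were Zfp808 at 39.1%, Zfp931 at 36.5%, Zfp758 at 28.4%, Zfp784 at 28.2% and Zfp965 at 27.5%. Zfp808 had 53.4, 116 and 50.9 estimated counts, so replicate 2 stood above the others. Zfp931 had 199, 415 and 380, so replicate 1 stood below.

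The members tended to be low in replicate 1 and high in replicate 2. Relative to the mean of the other libraries, replicate 1 was lower in 76 of 111 members (68.5%), while the background was 45.0%. The median log2 ratio was -0.18 for the members and 0.04 for all genes. Replicate 2 was higher in 81 of 111 members (73.0%, background 41.1%), with a median of 0.15 for the members and -0.06 for all genes. Replicate 3 was higher in 61 of 111 (55.0%, background 50.4%), with a median of 0.01. Replicate 1 was the lowest of the 3 libraries in 63 members, and replicate 2 the highest in 57, which is 56.8% against a background of 31.3%, and 51.4% against 27.8%.

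The pattern differed in strength between kinds of member. Replicate 1 was lower in 61 of 84 members with a KRAB pattern, with a median log2 ratio of -0.20 (background 45.0%). Without the pattern it was lower in 15 of 27, with a median of -0.03, close to 0. Among members that share under 10% of their words it was lower in 46 of 72, with a median of -0.125. By fingers it was lower in 9 of 13, 21 of 38, 31 of 38 and 15 of 22 members in order of increasing number. The medians in that order were -0.11, -0.04, -0.33 and -0.19. Zfp genes numbered below 700 had replicate 1 lower in 146 of 215, with a median of -0.08, and replicate 2 higher in 119 of 215, with 0.03. Of the 15 most abundant members, 11 were below 0 in replicate 1, from -0.60 for Zfp991 to -0.11 for Zfp993. The 4 above 0 were Zfp740 (0.23), Zfp715 (0.056), Zfp787 (0.042) and Zfp710 (0.037). In the second table the medians of replicates 1 and 2 were -0.07 and 0.08.

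Other gene lists moved differently between the libraries. All 10 macrophage markers were higher in replicate 1 (background 55.0%; median log2 ratio 0.49), and 8 of 10 were lower in replicate 2 (background 58.9%). Markers of fibroblasts went the other way at very low levels: Col1a1, Col1a2, Col3a1, Dcn and Pdgfra had 0 TPM in replicate 1 and at most 0.310 in the others. The 35 corepressor genes had a median of -0.02 in replicate 1 and -0.12 in replicate 2. The part of cell makeup, starting RNA amount or library preparation in the direction of the members was not tested, and the amount cannot be told apart from the replicate. In bulk RNA, fewer cells of a type and less RNA per cell cannot be told apart either.

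**Figure D5:**
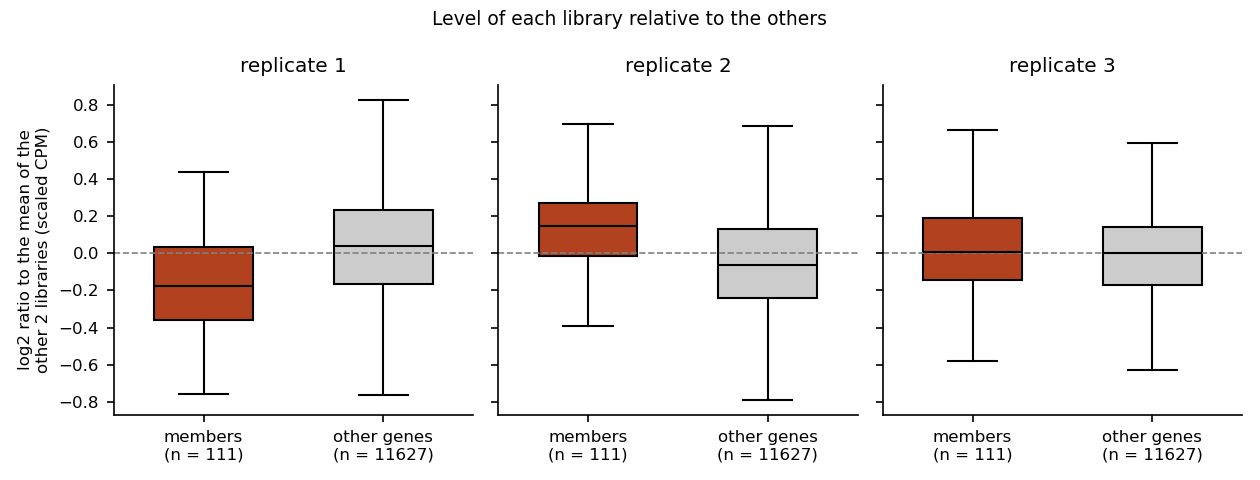
Log2 ratio of scaled CPM in each replicate to the mean of the other 2 (y axis) for the 111 members and the 11627 other genes with a protein_coding transcript and a mean count of 10 or more (x axis); boxes span the quartiles, with the median as a line and whiskers to 1.5 times the interquartile range. The median of the members lies below 0 in replicate 1, at -0.18, and above 0 in replicate 2, at 0.15, while each of these boxes crosses 0; the medians of the other genes lie closer to 0.

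RNA of genes listed as corepressors of KRAB zinc finger proteins was mostly present, while the proteins were not measured. Of these 35 corepressor genes, 34 were detected (97.1%, background 46.1%), with a median TPM of 28.7 ± 6.55 (SD, n = 3). Trim28, the KRAB-binding corepressor, had a TPM of 59.7, 40.8 and 38.8, and Setdb1 had 42.8, 31.8 and 25.2. Atrx, a chromatin remodeler, and Ehmt2, a histone methyltransferase, were the highest with mean TPMs of 232 and 134. Cbx5, a heterochromatin protein, had 8.49, 10.5 and 8.03. Only Atf7ip2 was not detected, with 0.370, 1.24 and 0.490. The lowest of those detected was Uhrf1, which binds hemimethylated DNA, with 3.55, 7.48 and 2.39, around the member medians of 4.40, 4.76 and 3.42.

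Depth was 15698066 estimated counts on annotated genes in replicate 1, 16005795 in replicate 2 and 14386725 in replicate 3. The labelled cell type was checked on 10 macrophage markers, of which 10 were detected, with a median TPM of 93.8 ± 42.3 (SD, n = 3). Of 25 markers of T cells, B cells, neutrophils, erythroid cells and fibroblasts, 0 were detected in the gene table, and 11 had 0 counts. In the second table the T cell marker Cd3d was detected, with a mean TPM of 11.4 ± 6.96 (SD, n = 3), against 0.0300 in the gene table. The other markers of these cell types were not detected there, although Mpo and Col1a1 had second-table mean TPMs of 1.26 and 1.16.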

How the data were processed

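Total RNA of the chromatin fraction was measured in 3 libraries of 1 group. The authors deposited, per the file headers, a gene table with an estimated count, a TPM and a read-assignment standard deviation (a score here, next to a posterior mean count), a first transcript table with an estimated count and a TPM, and a second transcript table with an estimated count, a TPM and an effective length. Per the deposited readme files these used mm10 and GENCODE M21. The sources used here do not state programs, versions or the use of strand. TPM is relative to all listed RNAs, short ones included. Rows that name no annotated gene (1.16%, 0.459% and 0.351% of counts) were left out.

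Means and SDs are over the 3 libraries. Counts were rounded and scaled with TMM factors (edgeR 4.0.16 in R 4.3.3), and DESeq2 1.42.0 size factors were an alternative. The TMM factors recovered the scaling of simulated data in which most genes were unchanged. That does not test how well they scale these libraries. Ratios used scaled CPM + 0.5. There was no second group, so no test was made. KRAB and C2H2 patterns and protein identity were computed from translated GENCODE coding sequences with Biopython 1.88. The KRAB pattern is a short core motif and can miss or add genes. The members without the pattern may therefore include genes with a KRAB domain, and contrasts by pattern may compare mixed lists. Named members are the 15 highest, those at the detection limit, those with extreme spread, table ratio, read-assignment SD or non-coding share, the most alike pairs, the largest chains, those at 0 and 15 with a described function. The members and lists were chosen with earlier results of these data known.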

Additional observations from a re-analysis of the deposited data

How the results depend on the processing

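Over 12 results and 72 alternative values, 46 stayed within the spread between libraries (counts and CVs within 1.5 times, replicate ratios within 0.1), 19 moved and 7 changed sign. Detected members were 62 of the 84 that share under 10% of their words, chosen after seeing the data. This count is among the 19 that moved, but it comes from a shorter list. The detected share was 73.8%, against 70.1% for all members. Median TPM of members was 6.38 in the second table, 5.65 with only members at 0.1 TPM or more in some library, and 12.6 with TPM rescaled without short RNAs, Gm26917, Gm42418 and Rmrp. Members minus other genes was 1.18 in the second table, 2.37 at a pseudocount of 0.1, 1.96 rescaled and 1.70 for members sharing under 10%, but -0.21 with only genes at 0.1 TPM or more. Members minus Zfp genes below 700 was 0.12 in the second table, 0.12 with only genes at 0.1 TPM or more, and -0.065 to 0.032 leaving out a replicate. KRAB minus no KRAB was -0.15 in the second table, -0.55 at a pseudocount of 0.1 and 0.027 for members sharing under 10%. Clustered minus single was -0.13 in the second table and -0.52 with only genes at 0.1 TPM or more. The share outside protein_coding transcripts was 49.2% in the second table. The ratio of replicate 1 was -0.070 in the second table, that of replicate 2 0.30 with total counts, and that of replicate 3 -0.12 with total counts and -0.0079 in the second table. Median read-assignment SD was 0.0245% at a mean count of 50 or more, and 0 to 0.0411% leaving out a replicate. The causes were not tested. No paired analysis was possible because there was a single group. With 3 libraries, levels near 1 TPM are not ordered, and depth limits members with few counts.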

Other observations

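Close relatives outside the numbering differed widely in level. Znf41-ps, a pseudogene that shares sequence with Zfp991, had a TPM of 45.4, 61.3 and 56.4, above Zfp991 in each library of the gene table, but its mean was 33.5 in the second table, below Zfp991. Zfp825 had 4.08, 3.31 and 3.21, while Gm46430, a lincRNA that shares words with it, had 29.8, 32.4 and 23.3. Zfp935 was at 0, while Gm49359, the gene that shares the most words with it, had 17.0, 14.3 and 16.5. Gm28557, the gene that shares the most words with Zfp708, had 5.58, 3.09 and 2.44, with a read-assignment SD of 19.5% of its count. At the other end, Gm8935, a processed pseudogene that shares the most words with the member Zfp987, was at 0 in all 3 libraries. Zfp600, related to Zfp978, Zfp979 and Zfp981, had 0.280, 0.210 and 0.240. Of 22 such relatives, Znf41-ps had the highest mean TPM in the gene table and Gm46430 in the second table, at 77.9. Rex2, related to Zfp980, had a mean TPM of 0.0900 in the gene table and 16.4 ± 14.4 in the second table (SD, n = 3).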
